A study of Homo sapiens with 16 samples.

Results

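The ribosome footprints of MDA-MB-231 cells carrying a tRNA-Ile-UAU construct were compared with those of cells carrying a control construct. The comparison took all 8 ribosome-protected fragment libraries of a series of 16 libraries, 4 with the tRNA-Ile-UAU construct against 4 with the control construct. MDA-MB-231 is an established line from a triple-negative breast cancer, and every library came from a CRISPRi derivative of it, in which a guide directs a repressor to a chosen promoter. In each arm 2 libraries carried a guide against eGFP, a jellyfish-derived reporter gene with no counterpart in the human genome, and 2 a guide against tRNA-Ile-GAU; the guide entered every pooled test as an additive term. The other 8 libraries are total RNA of the same 4 combinations, also 2 each, and were used only as a second readout of the same contrast. The cells were grown in dishes, although the labels give the source as a xenograft cell line. Each combination has replicates 1 and 2, whose origin in separate cultures is not stated, and the p-values therefore reflect no more than the spread among these libraries, possibly a technical one.

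Isoleucine is encoded by 3 codons. The tRNA with the UAU anticodon is the one that reads AUA, whereas AUC and AUU are read by tRNAs with GAU or inosine-modified AAU anticodons. Ribosome profiling sequences the pieces of mRNA left inside ribosomes after nuclease digestion, so the footprint count of a gene rises both with more mRNA and with more ribosomes per mRNA. In the GRCh38.p14 annotation of RefSeq the tRNA-Ile-UAU genes number 5, on chromosomes 2, 6 (3 genes) and 19, and span 93 to 94 bases each. The 3 tRNA-Ile-GAU genes, all on chromosome X, span 74 bases. The level of the tRNAs themselves and the codon content of the mRNAs were not analysed here.

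Counts assigned to genes numbered 358340 to 938909 per footprint library with the tRNA-Ile-UAU construct, 605973 to 849043 with the control construct, and 2512247 to 5446599 per total RNA library. Log2 normalised counts of the 2 replicates of a combination correlated across genes with r between 0.947 and 0.970 for footprints. Between 97.0% and 98.8% of the entries in a footprint file were alignments to more than 1 place, which were not assigned to a gene, so genes with near-identical copies or pseudogenes (ribosomal protein genes, EEF1G, FTL, histones) are measured with uncertainty. The summed footprints of 10 mesenchymal markers that define this line lay at 20800 to 22900 CPM (counts scaled to a common library size) in the control arm and 21630 to 22260 in the construct arm. The 15 luminal markers summed to 1260 to 1379 CPM in the control arm and 1332 to 1465 in the construct arm, with 1 of them, ESR1, at 0 in all 8 footprint libraries. Fibroblast markers summed to at most 48.5 CPM with 5 of 11 at 0, immune markers to at most 185 CPM with 7 of 12 at 0, and endothelial markers to at most 42.9 CPM with CDH5 and ERG at 0. In bulk samples fewer cells of a type and less RNA per cell cannot be told apart.

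Across 8143 genes tested, the tRNA-Ile-UAU construct went with 12 risen and 20 fallen footprint genes, 0.393% of those tested (edgeR quasi-likelihood test, Benjamini-Hochberg adjusted p under 0.05). The risen genes were 0.147% of those tested and the fallen genes 0.246%. The risen genes included EEF1G and EIF4A1, which act in translation elongation and initiation, the ribosomal protein genes RPL7A, RPS18 and RPS3, and the secreted matricellular proteins CYR61 and CTGF. The fallen genes included 7 of lipid synthesis and its control (among them FASN, SCD, FADS2, INSIG1, DHCR7 and SREBF1) and 5 histone genes. At an unadjusted p under 0.05 there were 644 genes (7.91%). The 4 construct libraries all lay above the 4 control libraries for 122 genes (1.5%) and all below for 152 (1.87%), together 3.36% of those tested; among the called genes this held for 7 of the 12 risen and 11 of the 20 fallen. The counts of risen and fallen genes moved to 7 and 11 without the second eGFP-guide control library, 10 and 12 or 7 and 9 without the first or second tRNA-Ile-GAU-guide control, and 17 and 13 or 7 and 12 without the first or second tRNA-Ile-GAU-guide construct library. In all 8 fits that left out 1 library, 9 genes stayed called: FASN, EEF1G, INSIG1, VSTM2A, HIST1H2BF, FADS2, SCD, RPS18 and RPL7A.

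**Figure D1:**
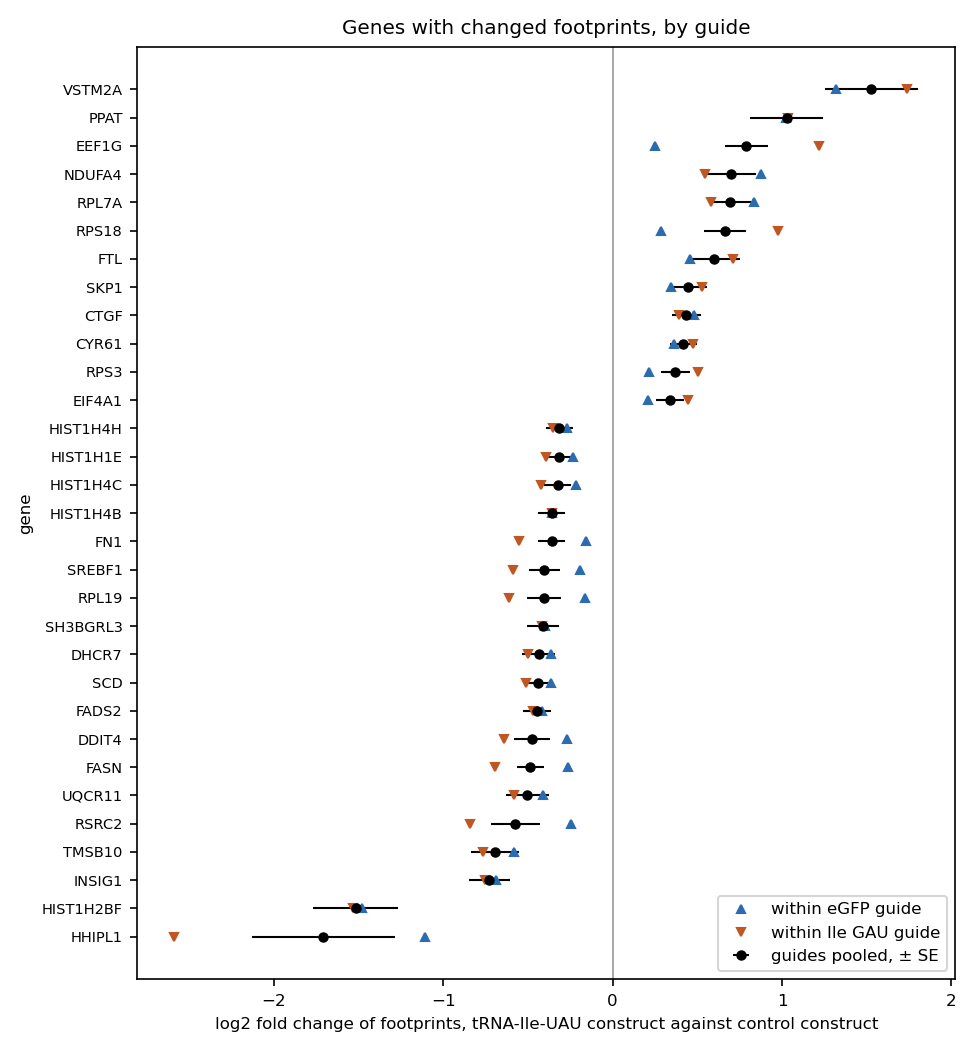
Log2 fold change of footprints (x axis), tRNA-Ile-UAU construct over control construct, for 31 of the 32 called genes (y axis): black points are the pooled effect with bars of 1 standard error, upward and downward triangles the effects within the eGFP and the tRNA-Ile-GAU guide. The tRNA-Ile-GAU triangle lies farther from 0 than the eGFP one for every fallen gene shown but HIST1H4B, where the 2 coincide. VSTM2A (1.53) and HHIPL1 (-1.71) are the farthest out of the pooled points.

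Fatty acid synthesis builds palmitate from acetyl-CoA and then desaturates and elongates it, and sterol synthesis builds cholesterol from the same precursor. Transcription of both is driven by the SREBP factors, which INSIG1 holds back in the endoplasmic reticulum when sterols are plentiful. Of 18 tested genes of fatty acid synthesis, 4 fell and 0 rose, and 16 had a log2 fold change below 0, with a median of -0.16. Of 25 tested genes of sterol synthesis and uptake, 3 fell and 0 rose, and 22 were below 0, with a median of -0.20. Over all 8143 genes, 50.3% were below 0 and the median was -0.00. These lists were drawn up with earlier results of these data known, so their direction is no independent evidence.

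FASN, the synthase that makes palmitate, had 2287 and 2650 CPM of footprints in the eGFP-guide control libraries and 2580 and 2475 in the tRNA-Ile-GAU-guide control libraries. With the tRNA-Ile-UAU construct it had 2072 and 2037 CPM under the eGFP guide and 1558 and 1563 under the tRNA-Ile-GAU guide. All 4 construct libraries were below all 4 controls, and the tRNA-Ile-GAU-guide ones were lowest. The pooled log2 fold change was -0.49 ± 0.08 (SE), 1.40-fold lower, at an adjusted p of 6.12e-05 (edgeR), and it was -0.27 ± 0.10 under the eGFP guide and -0.70 ± 0.10 under the tRNA-Ile-GAU guide. The difference between those effects had an adjusted p of 0.665 (edgeR interaction).

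INSIG1, the sterol-sensing anchor of the SREBP complex, had 227 and 227 CPM in the eGFP-guide controls and 205 and 234 in the tRNA-Ile-GAU-guide controls. The construct libraries had 114 and 159 CPM under the eGFP guide and 154 and 97.5 under the tRNA-Ile-GAU guide. The arms did not overlap and the 2 guides had like effects (-0.69 ± 0.18 and -0.76 ± 0.16). Pooled, INSIG1 fell by 0.73 ± 0.12 (SE) on the log2 scale, 1.66-fold lower, with an adjusted p of 6.62e-05 (edgeR). 

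SCD, which puts the first double bond into stearate, had 1332, 1419, 1368 and 1069 CPM in the 4 controls, eGFP guide first, and 1015, 1113, 952 and 745 in the construct libraries in that order. The arms overlapped at 1 point, since the second eGFP-guide construct library (1113) was above the lowest control (1069). SCD fell by 0.44 ± 0.08 on the log2 scale with an adjusted p of 0.000601 (edgeR). FADS2, the desaturase that starts the synthesis of polyunsaturated fatty acids, went from 919, 946, 978 and 815 CPM in the controls to 703, 695, 715 and 569 in the construct libraries. Its arms did not overlap, and it fell by 0.45 ± 0.08 with the same adjusted p of 0.000601 (edgeR).

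DHCR7, the last reductase of cholesterol synthesis, had 351 to 399 CPM in the controls and 204.5 to 300.1 in the construct libraries, with no overlap (-0.44 ± 0.10). SREBF1, the transcription factor gene of fatty acid synthesis, lay at 508.5 to 553 CPM in the controls. Its construct libraries had 534.5 and 410.5 CPM under the eGFP guide and 366 and 367.5 under the tRNA-Ile-GAU guide, so 1 of the 4 was within the control range (-0.40 ± 0.09). The adjusted p-values of DHCR7 and SREBF1 were 0.013 and 0.0132 (edgeR). Leaving out 1 library at a time ended these calls in 4 and 6 of 8 fits (highest adjusted p 0.28 and 0.156, edgeR), whereas FASN, INSIG1, SCD and FADS2 stayed called in all 8.

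Other members of the lists were lower without passing. HMGCS1, which makes the precursor of mevalonate, was at -0.54 ± 0.15 (adjusted p = 0.105), MSMO1, a sterol demethylase, at -0.45 ± 0.13 (0.105) and the desaturase FADS1 at -0.34 ± 0.09 (0.0895) by edgeR. SREBF2, the sterol counterpart of SREBF1, was at -0.39 ± 0.13 (0.234) and IDI1, the isopentenyl isomerase, at -0.34 ± 0.12 (0.329). The summed footprints of the sterol list were 4888 to 5389 CPM in the controls and 3773 to 4577 with the construct. Those of the fatty acid list were 8355 to 9047 CPM and 6302 to 7646. Neither sum overlapped between the arms. That was not particular to the lipid lists. Sums of the tRNA transcription and processing list (2367 to 2412 and 2434 to 2557 CPM) did not overlap either, nor those of translation factors.

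**Figure D2:**
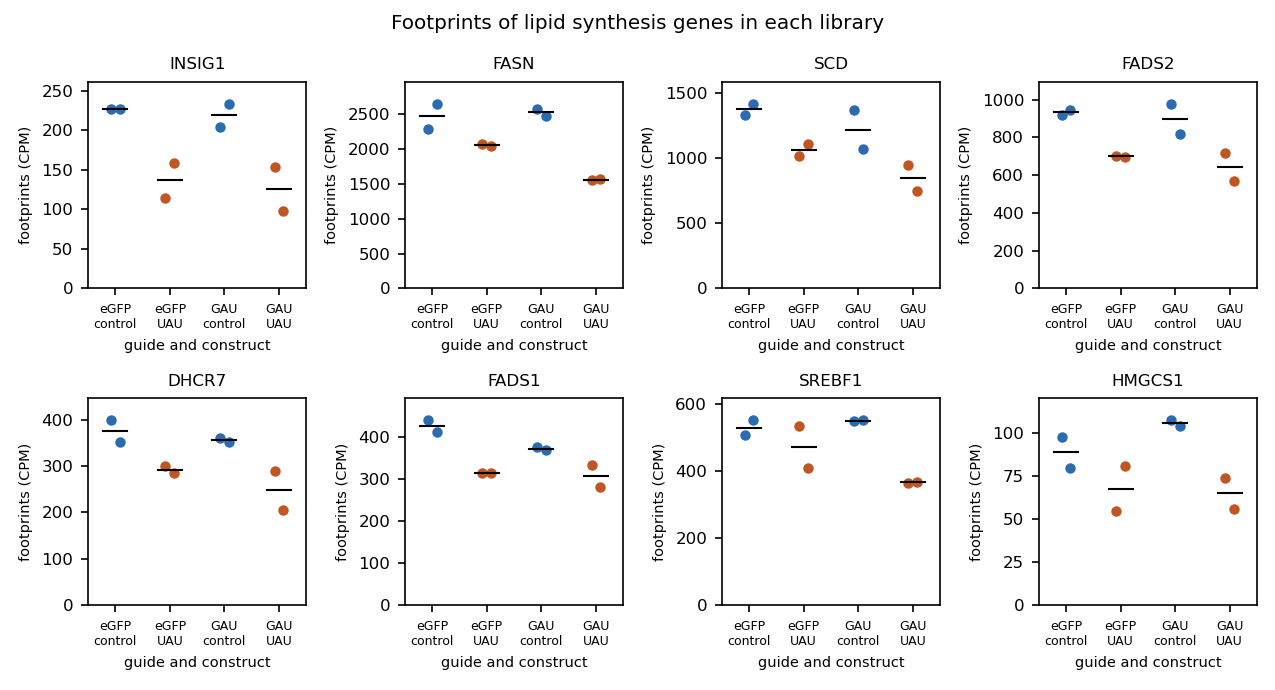
Footprints in CPM (y axis, linear from 0) of lipid synthesis genes in each of the 8 libraries, by guide and construct, with points for libraries and lines for the mean of 2. For FASN, INSIG1, FADS1, FADS2 and DHCR7 all 4 construct points lie below all 4 control points, while SCD, SREBF1 and HMGCS1 overlap.

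The 250 bases before the start of a gene were read for these members from the RefSeq promoter table (GRCh38.p14), which held 18 of the 25 tested sterol genes, 16 of the 18 fatty acid genes and 6820 of the 8143 tested genes. Motifs were searched on both strands: the NF-Y box CCAAT, the E-box CACGTG and the core CACCCCA of the sterol regulatory element. Of the 7 fallen lipid genes 5 were in the table, and the 3 whose promoters hold an NF-Y box are shown, with the matches in capitals (ATTGG is CCAAT on the other strand). INSIG1 is at chr7:155297628-155297877 on the plus strand, SCD at chr10:100346983-100347232 on the plus strand and DHCR7 at chr11:71448394-71448643 on the minus strand, each printed 5′ to 3′ along the gene.
INSIG1: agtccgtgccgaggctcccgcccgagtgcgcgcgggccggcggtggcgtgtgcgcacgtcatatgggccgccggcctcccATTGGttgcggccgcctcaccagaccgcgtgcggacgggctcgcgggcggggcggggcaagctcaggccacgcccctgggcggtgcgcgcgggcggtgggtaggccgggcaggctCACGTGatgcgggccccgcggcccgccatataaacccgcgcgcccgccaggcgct
SCD: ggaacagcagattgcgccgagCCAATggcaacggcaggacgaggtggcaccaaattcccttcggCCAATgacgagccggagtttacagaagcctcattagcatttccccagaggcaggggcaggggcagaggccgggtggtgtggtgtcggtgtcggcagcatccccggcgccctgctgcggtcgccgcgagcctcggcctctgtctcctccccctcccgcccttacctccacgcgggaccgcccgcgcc
DHCR7: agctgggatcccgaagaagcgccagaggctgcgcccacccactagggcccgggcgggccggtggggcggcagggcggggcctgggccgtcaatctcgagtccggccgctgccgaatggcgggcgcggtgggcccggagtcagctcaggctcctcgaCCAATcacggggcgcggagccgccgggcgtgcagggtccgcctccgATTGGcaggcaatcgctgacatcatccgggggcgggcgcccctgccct
INSIG1 holds an NF-Y box 170 bases and an E-box 55 bases before its start, SCD NF-Y boxes at 229 and 186 bases, and DHCR7 NF-Y boxes at 94 and 48 bases. A second DHCR7 start in the table (chr11:71449044-71449293, minus strand) holds no match of these motifs. Of the 5 fallen lipid genes in the table, 3 held an NF-Y box (60%), 1 an E-box (20%) and 0 the sterol regulatory core (0%). NF-Y boxes were in 15 of 18 sterol promoters (83.3%) and 10 of 16 fatty acid promoters (62.5%), against 42.9% of the promoters of tested genes and 37% of 27305 promoters in all. The sterol regulatory core was in 4 of 18 (22.2%) and 2 of 16 (12.5%), against 8.7% and 8.49%. The E-box was in 3 of 18 (16.7%) and 1 of 16 (6.25%), against 12.2% and 7.73%. These shares describe letters in a window and not binding.

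Eukaryotic elongation brings aminoacyl-tRNA to the ribosome on EEF1A, whose nucleotide exchange is served by a complex that includes EEF1G and EEF1B2, and initiation uses the EIF4A1 helicase to open the 5′ end of the mRNA. Of 37 tested initiation and elongation factors, 2 rose and 0 fell, and 30 had a log2 fold change above 0, with a median of 0.11. Of 26 tested small-subunit ribosomal protein genes, 2 rose and 0 fell and 21 were above 0, with a median of 0.12. Of 40 large-subunit genes, 1 rose (RPL7A) and 1 fell (RPL19), with a median of -0.01.

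EEF1G had 185 and 144 CPM in the eGFP-guide controls, 95.2 and 129.7 in the tRNA-Ile-GAU-guide controls, 166 and 217 in the eGFP-guide construct libraries and 256 and 270.1 in the tRNA-Ile-GAU-guide construct libraries. Under the eGFP guide the arms overlapped, and under the tRNA-Ile-GAU guide they were far apart. The pooled log2 fold change was 0.79 ± 0.13 with an adjusted p of 6.12e-05 (edgeR). The effects under the 2 guides were 0.25 ± 0.18 and 1.22 ± 0.16, and their difference did not pass (adjusted p = 0.067, edgeR interaction). DESeq2 gave EEF1G a like pooled size (0.73) at an adjusted p of 0.249, with 12311 of 13804 genes left without an adjusted p.

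RPS18 showed the same layout, with 172 and 137 CPM in the eGFP-guide controls, 108 and 109 in the tRNA-Ile-GAU-guide controls, 149 and 217 in the eGFP-guide construct libraries and 217 and 209 in the others (0.66 ± 0.12, adjusted p = 0.000601, edgeR). RPL7A had 101.2 to 139.5 CPM in the controls and 162 to 255 with the construct, without overlap (0.69 ± 0.12, adjusted p = 0.000373, edgeR). RPS3 rose from 587 to 679 CPM in the controls to 723 to 975 (0.37 ± 0.08), also without overlap. RPL19 went the other way, from 313 to 375 CPM to 215 to 320 CPM (-0.40 ± 0.10). EIF4A1 had 544 to 601 CPM in the controls and 657 to 791 with the construct (0.34 ± 0.08). Leaving out 1 library ended the calls of RPS3, RPL19 and EIF4A1 in 4, 5 and 6 of 8 fits (highest adjusted p 0.28, 0.441 and 0.244, edgeR), while EEF1G, RPS18 and RPL7A stayed called in all 8.

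The tendency of the small-subunit genes came with the tRNA-Ile-GAU guide: 13 of 26 were above 0 under the eGFP guide (median 0.01) and 20 of 26 under the tRNA-Ile-GAU guide (median 0.27), a difference that was not tested. For translation factors the counts were 22 of 37 (0.07) and 31 of 37 (0.19), and over all genes 50.4% and 50% were below 0. EEF1B2 (0.59 ± 0.17, adjusted p = 0.105, edgeR) and the stalk protein gene RPLP0 (0.42 ± 0.12, 0.1004) were higher without passing. Summed footprints of the factors were 13050 to 13850 CPM in the controls and 14230 to 15590 with the construct, without overlap, and those of the small-subunit genes overlapped (8043 to 9659 and 9123 to 10190).

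**Figure D3:**
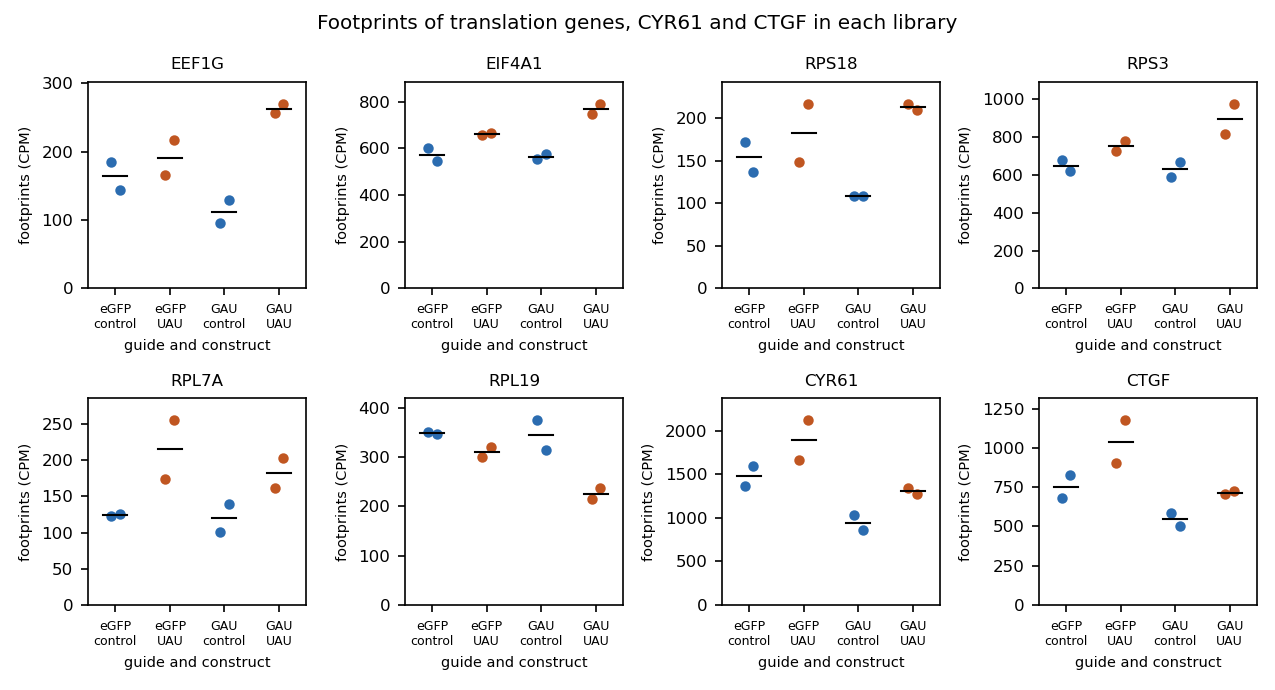
Footprints in CPM (y axis, linear from 0) of translation genes, CYR61 and CTGF in each of the 8 libraries, by guide and construct, with points for libraries and lines for the mean of 2. EEF1G is highest in the tRNA-Ile-GAU-guide construct libraries, and RPL19 is lowest there. RPS18 has 217.3 and 209.3 CPM there and 216.6 in the second eGFP-guide construct library.

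Genes that handle isoleucine directly did not pass. IARS, the cytosolic isoleucyl-tRNA synthetase, had 546 to 618 CPM in the controls and 554.5 to 656 with the construct (0.05 ± 0.09, adjusted p = 0.936, edgeR), and the mitochondrial enzyme IARS2 had 161.5 to 222 and 182 to 224 CPM (0.08 ± 0.11, 0.927). Of 27 tested aminoacyl-tRNA synthetases 0 were called and the median was 0.04. Of 41 genes of tRNA transcription and processing 0 were called (0.06), and of 16 genes of branched-chain amino acid breakdown 0 (0.00). Of 13 amino acid transporters 0 were called (-0.01). Among 18 targets of ATF4, the factor induced by amino acid shortage, 1 was called, and the median was 0.13. That gene was DDIT4, an inhibitor of mTORC1, which fell from 292.5 to 389 CPM in the controls to 204 to 320.1 (-0.48 ± 0.11, adjusted p = 0.0129, edgeR). The DDIT4 call was lost in 3 of 8 fits that left out 1 library, with the highest adjusted p (0.325, edgeR) without the first tRNA-Ile-GAU-guide control.

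CYR61 and CTGF are secreted proteins and standard targets of the YAP and TEAD factors. CYR61 had 1369 and 1597 CPM in the eGFP-guide controls and 1664 and 2124 with the construct under that guide, and 1033 and 861.5 against 1349 and 1278 under the tRNA-Ile-GAU guide. Within each guide both construct libraries were above both controls, while the pooled arms overlapped, the eGFP-guide libraries being higher in both. CYR61 rose by 0.42 ± 0.08 on the log2 scale and CTGF by 0.43 ± 0.09, with adjusted p-values of 0.000952 and 0.00128 (edgeR). CTGF had 682 and 826 CPM against 903 and 1177 under the eGFP guide and 587 and 503 against 706.5 and 724 under the tRNA-Ile-GAU guide. CYR61 no longer passed without the second tRNA-Ile-GAU-guide control library (adjusted p = 0.055, edgeR), nor CTGF without the second eGFP-guide construct library (0.103). The other 15 tested genes of that list did not pass, and the median of all 17 was -0.05.

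The TEAD motif GGAATG, searched after these values were seen, lay 3 times in the CTGF promoter (listed by RefSeq as CCN2, chr6:131951373-131951622, minus strand), 169, 104 and 95 bases before the start. It is shown because CTGF was called, with the matches in capitals. CYR61 was called too, but its promoter is not shown and its matches are not given.
CCN2: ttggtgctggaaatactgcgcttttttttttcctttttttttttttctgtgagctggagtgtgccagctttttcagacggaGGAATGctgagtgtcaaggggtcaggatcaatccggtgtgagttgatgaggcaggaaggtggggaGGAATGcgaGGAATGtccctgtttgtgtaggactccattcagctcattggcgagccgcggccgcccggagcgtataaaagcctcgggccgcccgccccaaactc
The motif was in 7 of 13 promoters of the list (53.8%), against 12.8% of those of tested genes and 14.3% of all.

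Histone genes fell in 5 cases. Of the 18 tested genes of the histone list 3 fell. In the list 11 genes were below 0 (61.1%) and 7 above, with a median of -0.11, against 50.3% of all genes below 0. Outside the list, HIST1H2BF and HIST1H4H also fell. Tested histone genes outside the list were not counted, so the 5 have no share beside them. HIST1H4B, an H4 gene, had 1042 to 1129 CPM in the controls and 794 to 872 with the construct (-0.36 ± 0.08, adjusted p = 0.00808, edgeR). The H1 gene HIST1H1E was at 2743 to 3339 and 2231 to 2755 CPM (-0.32 ± 0.08), and HIST1H4C and HIST1H4H, again H4 genes, were at -0.32 ± 0.08 and -0.31 ± 0.08. HIST1H2BF, an H2B gene, was the lowest of the group at 30.3, 49.2, 38.5 and 69.8 CPM in the controls and 14.3, 14.0, 20.3 and 15.98 with the construct (-1.52 ± 0.25, adjusted p = 6.62e-05, edgeR). It rested on 5 to 57 footprints per library. It stayed called in all 8 fits that left out 1 library, while HIST1H4B, HIST1H1E, HIST1H4C and HIST1H4H lost the call in 2, 5, 4 and 7 of them.

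The other called genes belonged to no gene list with more than 1 call. Among them NDUFA4, which rose, and UQCR11, which fell, both encode respiratory chain subunits. PPAT, the first committed enzyme of purine synthesis, rose from 22.04 to 27.7 CPM in the controls to 43.9 to 67.1, 2.04-fold (1.03 ± 0.22, adjusted p = 0.00379, edgeR). NDUFA4, a respiratory chain subunit, rose from 66.2 to 89.2 to 97.4 to 166 CPM (0.70 ± 0.14). NDUFA4 did not pass without the second eGFP-guide control library (adjusted p = 0.0601, edgeR), and without the second tRNA-Ile-GAU-guide construct library PPAT did not pass (adjusted p = 0.111, edgeR). The ubiquitin ligase subunit gene SKP1 and the ferritin light chain gene FTL rose by 0.45 ± 0.11 and 0.60 ± 0.15. FN1, which encodes fibronectin, fell from 2280 to 3187 to 1844 to 2114 CPM (-0.36 ± 0.08, adjusted p = 0.00988, edgeR), and the actin-monomer binder TMSB10 from 115.0 to 176 to 71.6 to 94.3 CPM (-0.69 ± 0.14). Without the first tRNA-Ile-GAU-guide control library, the highest for both, neither passed (adjusted p = 0.4 and 0.245, edgeR), nor without the first tRNA-Ile-GAU-guide construct library. SH3BGRL3, UQCR11 (a complex III subunit) and RSRC2 fell by 0.41, 0.50 and 0.58 on the log2 scale. Leaving out 1 library ended the calls of SKP1, FTL, SH3BGRL3, UQCR11 and RSRC2 in 4, 7, 5, 5 and 5 of 8 fits.

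Of the 8143 genes with tested footprints, 22 (0.27%) had 0 counts in all 8 total RNA libraries, which allows at most 0.106 CPM over the 28400249 counts of those libraries together. They included 4 of the 32 called genes: VSTM2A, EIF4A1, HIST1H2BF and HHIPL1. VSTM2A rose by 1.53 ± 0.28 and HHIPL1 fell by 1.71 ± 0.42 on the log2 scale, on 7 to 29 and 1 to 16 footprints per library. Thinned to 358340 counts per library VSTM2A did not pass (1.16, adjusted p = 0.189, edgeR), and leaving out 1 library ended the call of HHIPL1 in 6 of 8 fits. EIF4A1, which every cell uses, had 230 to 699 footprints per library and 0 RNA counts, so a 0 in these RNA files does not show that an mRNA was absent. Without the 4 genes the counts were 10 risen and 18 fallen.

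In total RNA 0 of 11720 genes passed the same test (0% called; 252 genes, 2.15%, at an unadjusted p under 0.05), and DESeq2 called 3, CYR61, IQGAP1 and INSIG1. Of the called footprint genes with tested RNA, 5 of 10 risen and 16 of 18 fallen had the same sign in RNA. Their median RNA log2 fold changes were 0.03 and -0.14. Over all RNA genes 55.2% were higher and 44.8% lower, with a median of 0.02. The share of same signs over all genes with both readouts was not computed. Across the 8012 genes with both readouts the 2 effects correlated with r = 0.0975, as a description over genes of the same cells. The RNA fit had a biological coefficient of variation of 13.5% against 6.93% for footprints. The 2 RNA replicates with the tRNA-Ile-GAU guide and the construct correlated with r = 0.958, against 0.983 to 0.986 in the other combinations. Without the first of them 8.16% of genes had an unadjusted p under 0.05 (edgeR), and without the second 6.49%. Leaving out any other RNA library gave 1.35% to 1.94%. What lies behind the 0 calls was not tested.

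INSIG1 RNA was 465, 419, 325 and 393 CPM in the controls, eGFP guide first, and 315, 311, 267 and 259 in the construct libraries, without overlap (-0.47 ± 0.08; adjusted p = 0.726 by edgeR, 0.00118 by DESeq2). SCD RNA was 1986 to 2287 CPM against 1315 to 1727, also without overlap (-0.39 ± 0.09, adjusted p = 0.9999, edgeR). For CYR61 the RNA values were 350.3, 426, 308 and 290.4 CPM in the controls and 507, 699, 423 and 408 in the construct libraries (0.55 ± 0.10; adjusted p = 0.909 by edgeR, 0.00145 by DESeq2). CTGF RNA was at 0.46 ± 0.12. FASN RNA, at 293 to 437 and 198 to 387 CPM, overlapped (-0.15 ± 0.18), and FADS2 RNA was at -0.04 ± 0.16. EEF1G RNA was 621.5 to 789 and 632 to 735 CPM (-0.05 ± 0.07), and RPL7A RNA was at -0.06 ± 0.10.

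By list, 24 of 25 sterol genes were lower in RNA (median -0.17) and 13 of 17 fatty acid genes (-0.10). Over all RNA genes 44.8% were lower, with a median of 0.02. Other lists were one-sided toward higher RNA, against 55.2% of all RNA genes higher. They were heat shock chaperones (22 of 23, median 0.05), ATF4 targets (21 of 24, 0.115), mitotic genes (22 of 26, 0.06) and aminoacyl-tRNA synthetases (22 of 27, 0.08). Of the translation factors 18 of 37 were higher in RNA (-0.01). The summed RNA of the sterol list was 2628 to 2887 CPM in the controls and 2060 to 2509 with the construct. That of the fatty acid list was 5314 to 5774 and 4201 to 4950, and neither overlapped. Nor did the RNA sums overlap for aminoacyl-tRNA synthetases (5241 to 5381 and 5444 to 5916 CPM). Those of the mesenchymal markers were also apart (8392 to 8641 and 8116 to 8376). The RNA arms did not overlap for 1.83% of the genes tested. RNA of the first tRNA-Ile-GAU-guide construct library stood apart for ribosomal protein genes, whose small-subunit sum was 9778 CPM there and 5660 to 7503 in the other 7. Without it the RNA test called 5 genes: CYR61, IQGAP1 and RNU4-2 risen, INSIG1 and SNORA73A fallen.

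Translational efficiency, the change of footprints relative to RNA tested as an interaction over all 16 libraries, passed for 0 of 8012 genes (0% called; 256 genes, 3.2%, at an unadjusted p under 0.05). EEF1G was at 0.81 ± 0.20 and RPL7A at 0.76 ± 0.19, both at an adjusted p of 0.9998 (edgeR), and INSIG1 was at -0.26 ± 0.17 and SCD at -0.06 ± 0.15. Of 36 translation factors 29 were above 0 (median 0.08), while 54.4% of all genes were below 0 (-0.02). The sterol genes were below 0 in 14 of 24 (-0.06). Both tRNA-Ile-GAU-guide construct RNA libraries, the pair of lowest correlation, entered this test, which was not rerun without either.

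**Figure D4:**
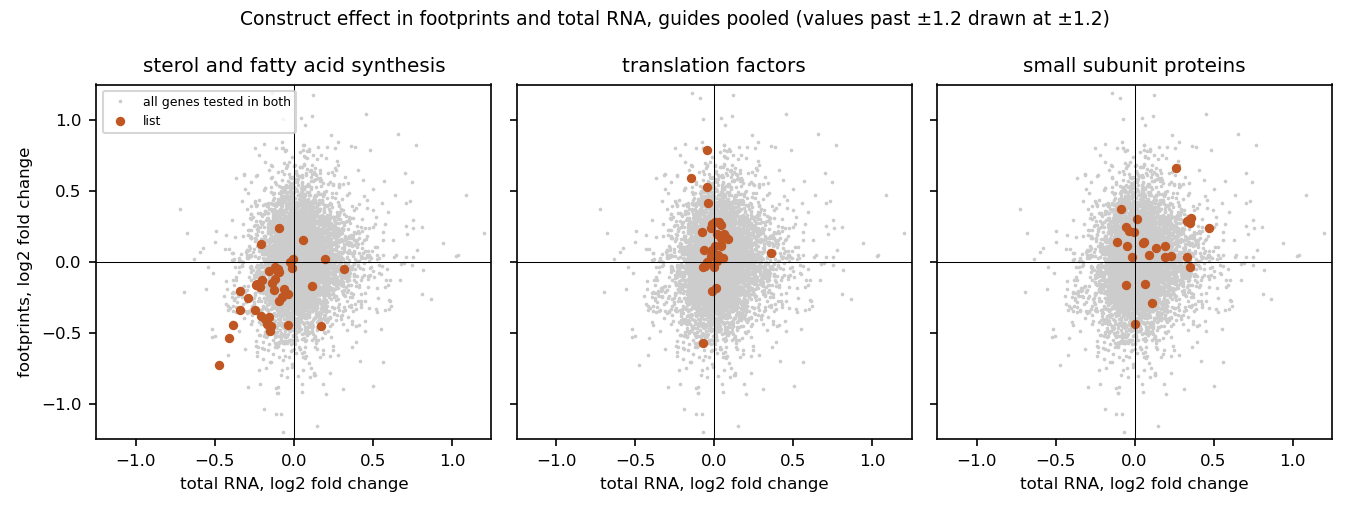
Log2 fold change in total RNA (x axis) against that in footprints (y axis), tRNA-Ile-UAU construct over control construct with guides pooled, with grey points for all genes tested in both, orange points for the list named above each of 3 panels, and values past 1.2 in either direction drawn at 1.2. The sterol and fatty acid genes lie mostly low on both axes (medians of -0.17 and -0.10 in RNA), while the translation factors lie mostly above 0 in footprints and on both sides of 0 in RNA (18 of 37 higher).

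The construct's effect was also taken within each guide, in contrasts that share no library. Under the eGFP guide 2 genes rose (0.0246%), RPL7A and GBP2, and 0 fell, with 409 genes (5.02%) at an unadjusted p under 0.05. Under the tRNA-Ile-GAU guide 11 rose (0.135%) and 25 fell (0.307%), together 0.442%, with 677 genes (8.31%) at an unadjusted p under 0.05. The effects of the pooled calls under each guide are a description, since a gene with opposite signs could hardly be called in the pooled test. The effect was larger under the tRNA-Ile-GAU guide for 9 of 12 risen and 20 of 20 fallen genes, HIST1H4B being nearly equal (-0.3593 and -0.3591). The share over all genes was not computed, so these counts do not show a trait of the called genes. The tRNA-Ile-GAU-guide libraries were deeper (639320 to 938909 counts against 358340 to 607919). Whether depth bears on which genes the pooled test chose was not tested. Among all tested genes 52.9% had the same sign under both guides, and the effects correlated across genes with r = 0.0843. Of the 36 genes called under the tRNA-Ile-GAU guide, 31 (86.1%) had the same sign under the eGFP guide. Of the 2 called under the eGFP guide, 1 had the same sign under the other. At an unadjusted p under 0.05 (edgeR), 223 of 409 genes of the eGFP guide (54.5%) had the same sign under both. For the tRNA-Ile-GAU guide it was 401 of 677 (59.2%), and 45 of 57 (78.9%) at that p under both guides.

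A difference of the construct's effect between guides passed for 5 genes (0.0614%; 5.83% had an unadjusted p under 0.05), all lower under the tRNA-Ile-GAU guide, and none was among the 32. The Wnt receptor gene ROR2 differed by -2.59 ± 0.45 (adjusted p = 0.000356, edgeR). It had 67.4 and 42.4 CPM without and 65.7 and 62.9 with the construct under the eGFP guide, but 37.3 and 97.9 without and 8.56 and 19.2 with it under the tRNA-Ile-GAU guide, and it is 1 of the 22 genes with 0 RNA counts. The RNA-binding LSM4 differed by -0.80 ± 0.15, the complement regulator CD55 by -0.87 ± 0.18, the growth factor gene PDGFC by -1.44 ± 0.33 and the transglutaminase TGM2 by -0.72 ± 0.17. TGM2 went opposite ways under the 2 guides, at 463 and 482 CPM without and 606 and 606 with the construct under the eGFP guide, and 814 and 738 without and 581 and 629.6 with it under the tRNA-Ile-GAU guide. GBP2, an interferon-induced GTPase, was at 1.26 ± 0.28 and -0.19 ± 0.24 under the 2 guides, a difference that did not pass (adjusted p = 0.103, edgeR).

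The remaining lists had few or no calls. Of 24 interferon-stimulated genes 0 were called (median 0.04), of 22 genes of the unfolded protein response 0 (-0.06), of 21 heat shock chaperones 0 (0.04) and of 30 proteasome genes 0 (-0.01). Of 26 mitotic genes 0 were called, with 20 above 0 (0.07), and of 30 replication genes 0 (-0.03). Of 32 oxidative phosphorylation genes 1 rose, NDUFA4 (0.02), and of 31 mitochondrial ribosomal protein genes 0 were called (-0.03). The complex III subunit gene UQCR11, which fell, was outside the oxidative phosphorylation list. Of 24 genes of glycolysis and hypoxia 0 were called (0.02), and of 26 extracellular matrix genes 1 fell, FN1 (-0.02). By chromosome the median footprint effect of the construct lay between -0.03 and 0.03.

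**Figure D5:**
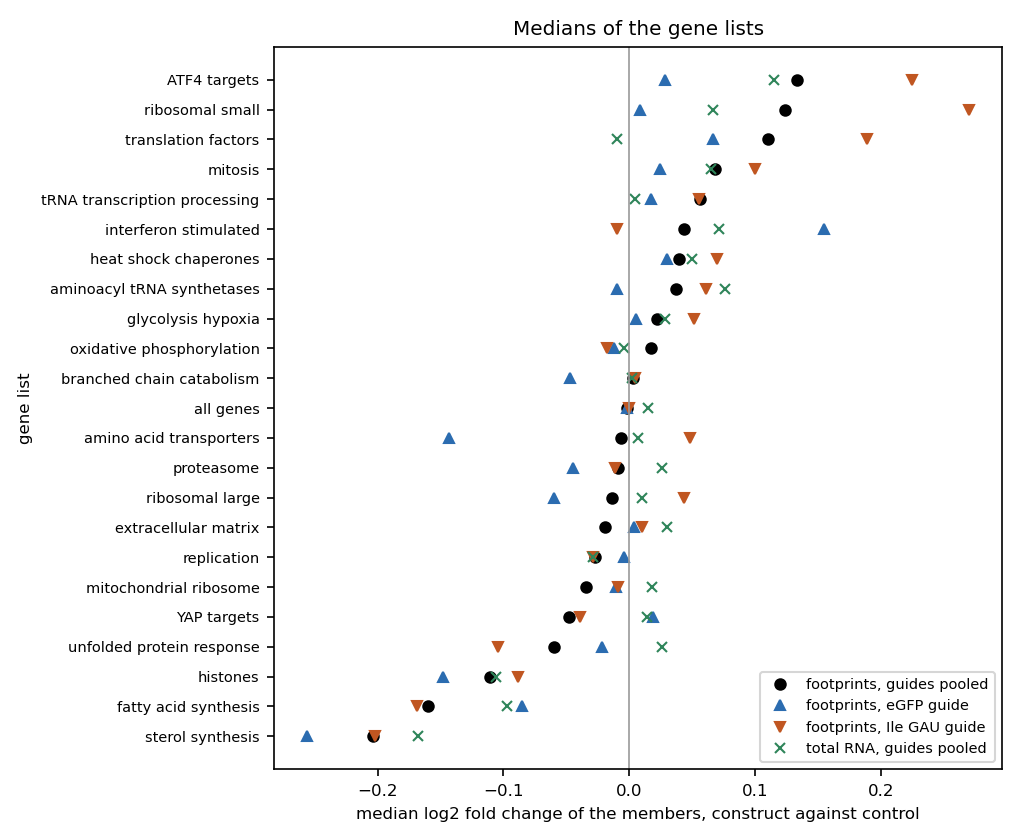
Median log2 fold change (x axis) of each gene list (y axis), tRNA-Ile-UAU construct over control construct: circles are footprints with guides pooled, upward and downward triangles footprints within the eGFP and the tRNA-Ile-GAU guide, and crosses total RNA. The sterol and fatty acid lists have medians of -0.20 and -0.16 in pooled footprints and -0.17 and -0.10 in RNA, and the translation factors 0.11 in footprints and -0.01 in RNA.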

How the data were processed

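Per the submitters' processing notes, reads were processed with cutadapt 1.17, STAR 2.5.2a and HTSeq on hg38; the order, settings, annotation and strand of counting are not given in the sources used here. The authors deposited raw counts per gene symbol, 1 file per library. The footprint files list genes with at least 1 count, so a gene missing from one was taken as 0, while the RNA files list 26485 genes, zeros included. The 5 HTSeq summary lines were dropped. Genes were kept by edgeR's filterByExpr (minimum count 10, minimum total 15) and tested on TMM-scaled counts with the quasi-likelihood test of edgeR 4.0.16 (limma 3.58.1, R 4.3.3) on guide plus construct, with Benjamini-Hochberg adjustment and a threshold of 0.05. The spread had 5 residual degrees of freedom. Effects within a guide and their difference came from a fit of the 4 combinations. Translational efficiency was the assay-by-construct interaction over 16 libraries. CPM values of single genes are TMM-scaled, and sums over a list are unscaled. Of the symbols, 23758 were current, 1572 older and 1155 unmatched in the gene table.

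The footprint and RNA tests were tested on simulated data with known changes before use. Of simulated footprint genes, 46 of 95 with a 1.5-fold change and 84 of 96 with a 2-fold change were called. For RNA it was 48 of 100 and 84 of 100. Unchanged genes were called 6 times in footprints and 4 times in RNA.

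The contrast and the 28 gene lists were chosen with earlier results of these data known. The genes named were the called ones (the 15 of largest change per direction where over 30 were called), IARS and IARS2, up to 3 of lowest p per list, and genes called in RNA, in translational efficiency or in the interaction. The 5 fallen genes of smallest change (FN1, HIST1H4B, HIST1H4C, HIST1H1E, HIST1H4H) were named as list members or after their values were seen. Alternatives were other scalings, filters, DESeq2 1.42.0, voom, a replicate block, no guide term, thinning to 358340 counts and leaving out each library. Results for 2 genes of the sterol list are not reported here, 1 of them called; both remain in the counts, medians and sums.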

Additional observations from a re-analysis of the deposited data

Results flagged for a closer look

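In 8 of 188 groups of 4 footprint libraries checked (4.26%; chance sets apart about 1 in 20), 1 library stood far from the other 3. The first tRNA-Ile-GAU-guide control library was the highest control for TMSB10 (176 CPM), FN1 (3187 CPM) and DDIT4 (389 CPM). The second tRNA-Ile-GAU-guide construct library was the lowest of its arm for FADS2 (569 CPM) and DHCR7 (204.5 CPM). The first eGFP-guide construct library, the shallowest, was the lowest of its arm for RPS18 (149 CPM) and for NARS, the cytosolic asparaginyl-tRNA synthetase (129 CPM). The first eGFP-guide control library was the lowest control for SREBF1 (508.5 CPM).

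The footprint effect of the construct differed between the guides by the interaction test for 5 genes, given as the log2 effect under the tRNA-Ile-GAU guide minus that under the eGFP guide: ROR2 (-2.59), PDGFC (-1.44), CD55 (-0.87), LSM4 (-0.80) and TGM2 (-0.72).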

How the results depend on the processing

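Against 12 risen and 20 fallen footprint genes, DESeq2 called 6 risen and 15 fallen, a fit without the guide term 5 and 4, counts thinned to the shallowest library 7 and 7, and the eGFP guide alone 2 and 0. Leaving out 1 library gave 7 to 17 risen and 9 to 21 fallen. DESeq2 gave no adjusted p for 12311 of its 13804 footprint genes, so its adjustment ran over far fewer genes than that of edgeR. Those without one included 9 of the 32 genes. Of the 32, 18 remained called and 5 were lost. Other scalings, voom, other filters, averaged group means and the tRNA-Ile-GAU guide alone gave 10 to 13 risen and 19 to 25 fallen. The labels do not say what a replicate number shares. Same-numbered footprint libraries deviated with correlations of -0.04 to 0.06 across genes, and same-numbered RNA libraries with -0.42 to 0.36. These values cannot settle whether same-numbered libraries share a culture. With the replicate number as a block 12 genes rose and 26 fell, all 32 were still called, and the RNA and translational efficiency tests called 0 and 0. In total RNA, where the count was 0 and 0, DESeq2 called 2 risen and 1 fallen, and leaving out 1 library gave 0 to 3 risen and 0 to 2 fallen. For all these counts the cause was not tested. Over 94 single-gene values, 1615 recomputed values stayed on their side of the threshold, 188 no longer passed and 17 newly passed. In 41 a value that had not passed changed sign or DESeq2 gave no adjusted p, and 0 called values changed direction. Over 20 alternatives 19 to 23 sterol genes and 14 to 17 fatty acid genes stayed below 0. With every footprint library thinned to the depth of the shallowest (358340 counts), 18 of the 32 calls were lost and 1 gene could not be tested. Leaving the shallowest library out instead kept 29 of the 32 calls and lost 3. The limit from 0 counts covers counting error only.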
